A study of Mus musculus with 10 samples.

Results

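A group of 81 genes whose nascent transcription had not fallen far within the first hour of SOX2 loss, and was lower at 6 hours, was examined in mouse embryonic stem cells. SOX2 is a pioneer transcription factor that binds DNA together with OCT4 and keeps enhancers of the pluripotent state accessible. Labelled nascent RNA shows transcription at the time of labelling, because stable mRNA made before the depletion is largely left out.

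The cells were E14 mouse embryonic stem cells in which SOX2 carried an FKBP tag, a degron through which the small molecule dTAG-13 sends the protein to the proteasome. All 5 groups carried this tag: NT cells were given DMSO, and the others 500 nM dTAG-13 for 0.5, 1, 2 or 6 hours (hours post depletion, hpd), with 2 replicates each. RNA was labelled with 2 mM 4-thiouridine for 10 min, captured and sequenced by TT_chem-seq, and fragments were counted by the authors over transcribed units, stretches of continuous nascent transcription on 1 strand that span exons and introns. Untagged cells given dTAG-13 were not analysed here, so an effect of the compound apart from SOX2 cannot be told apart from the depletion. No label tied the replicates to separate cultures, so p-values measure the spread between these libraries, which may be technical.

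The members were chosen on the values themselves. From 40779 units, 16119 held a single gene, and 9796 of these (eligible genes) had a mean of at least 50 fragments per library and a symbol outside a set of excluded families and provisional names. With CPM (a unit's fragments scaled to the total of its library), and the log2 ratio to NT taken on group means after adding 0.1 CPM, a gene was kept when its ratio was above -0.3 after 0.5 h, within 0.4 of 0 after 1 h and at or below -0.8 after 6 h. These thresholds kept 81 genes, and all 81 were among the 28459 units that passed the count filter of the test. The ratios at 0.5, 1 and 6 hpd are therefore descriptions, and counts of calls at these times are given beside their background only, with nothing read from them. The 2 hpd libraries took no part in the choice and could be tested, although the NT libraries they were compared with had been used.

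Library totals ran from 11131490 to 25854106 fragments. Summed over 10 embryonic stem cell markers, NT libraries held 4375 and 4897 CPM and 6 hpd libraries 3591 and 3731 CPM, while the markers of primitive endoderm, trophectoderm, mesendoderm, neural ectoderm and fibroblasts that were held as single-gene units summed to at most 106 CPM per list in any library. Of these lists, fibroblast markers went from 10.3 and 12.8 CPM in NT to 26.3 and 42.4 CPM at 6 hpd, and primitive endoderm markers from 80.8 and 81.3 to 97.2 and 106 CPM. Trophectoderm markers went from 25.9 and 29.7 to 19.4 and 23.4 CPM, and mesendoderm markers from 19.2 and 23.7 to 12.4 and 13.4 CPM. Of the fibroblast list 2 of 8 markers were among the tested units, of primitive endoderm 6 of 10, of trophectoderm 5 of 10 and of mesendoderm 4 of 8. Their part in the results was not tested. Nascent Sox2 RNA is no check of the labels, since the degron acts on the protein. In these bulk samples, fewer transcribing cells and less RNA per cell cannot be told apart.

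The 81 genes were a mixed set in function and position. By RefSeq, 75 were protein coding, and the other 6 were the transcribed pseudogenes Serpina3h, Nlrp5-ps and Ptprv and the long non-coding RNAs Kirrel3os, AI507597 and Mir17hg. The largest group by known role was neuronal and axonal proteins, with 15 genes. It was followed by 12 cytoskeleton, adhesion and small GTPase regulators, 12 receptors and ligands, 10 pluripotency, early embryo and transcription factors, 9 metabolic or mitochondrial proteins, and 6 matrix or secreted enzymes and inhibitors. Another 17 were placed in no such group. The role groups were written after the members were known and were not tested. Each gene was placed in a single group although some fit several. The receptor Ntrk3 and the ligand Slit3 were counted as neuronal, the receptor Vmn1r210 in no group, and the enzyme Tdh with the pluripotency genes. Differences between groups depend on such placements. For 70 genes the unit covered over 90% of the annotated transcript. For 21 genes, however, under 50% of the unit lay inside that transcript, so that most of the counted stretch was upstream or downstream of the annotated gene. Symbols are given as in the deposited table: C77370 is listed by RefSeq as Nexmif, Cyr61 as Ccn1, Fam129b as Niban2 and AI464131 as Myorg.

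One member carries its known products as short sequences, which are shown because this gene was among the 6 members with the smallest p at 2 hpd. Mir17hg (chr14:115040945-115065476, plus strand, mm10) is the host transcript of the miR-17-92 cluster, microRNAs known to promote proliferation and survival and to be abundant in embryonic stem cells. Its unit held 11 mature microRNAs of the RefSeq table (GRCm38.p6). The 6 arms usually taken as dominant are grouped here by their seed, bases 2 to 8, in capitals.
mmu-miR-17-5p, chr14:115043684-115043706, plus strand: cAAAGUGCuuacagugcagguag
mmu-miR-20a-5p, chr14:115044183-115044205, plus strand: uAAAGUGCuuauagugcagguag
mmu-miR-18a-5p, chr14:115043867-115043889, plus strand: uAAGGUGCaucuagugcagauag
mmu-miR-19a-3p, chr14:115044048-115044070, plus strand: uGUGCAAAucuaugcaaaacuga
mmu-miR-19b-3p, chr14:115044358-115044380, plus strand: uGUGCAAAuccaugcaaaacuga
mmu-miR-92a-3p, chr14:115044476-115044496, plus strand: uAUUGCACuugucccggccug
The pairs miR-17-5p and miR-20a-5p, and miR-19a-3p and miR-19b-3p, shared a seed. Mature microRNAs were not measured here, and only 9.53% of the Mir17hg unit lay inside the annotated transcript. The unit of Slit3 (chr11:35130817-35710398, plus strand), a ligand of Robo receptors, held miR-218-5p (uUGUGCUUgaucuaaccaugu, chr11:35616840-35616860), a microRNA hosted by Slit genes.

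Together the 81 genes took 2572 and 2661 CPM of the NT libraries and 2623 and 2807 CPM at 0.5 hpd. They took 2282 and 2434 CPM at 1 hpd, 1623 and 1785 CPM at 2 hpd, and 1157 and 1121 CPM at 6 hpd. The sum was already lower in both libraries at 1 hpd than in both NT libraries, within the band that the choice allowed. The median log2 ratio to NT was 0.01 after 0.5 h and -0.20 after 1 h, was -0.52 after 2 h, and was -1.04 after 6 h. Single genes ranged from -1.62 to 0.11 after 2 h and from -3.07 to -0.80 after 6 h. At 6 hpd 44 genes were at least 2-fold and 6 at least 4-fold below NT on this scale. Those 6 were Ntrk3, Stmn2, Ndrg1, Tmem132d, Ctnnd2 and Ddr2.

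**Figure D1:**
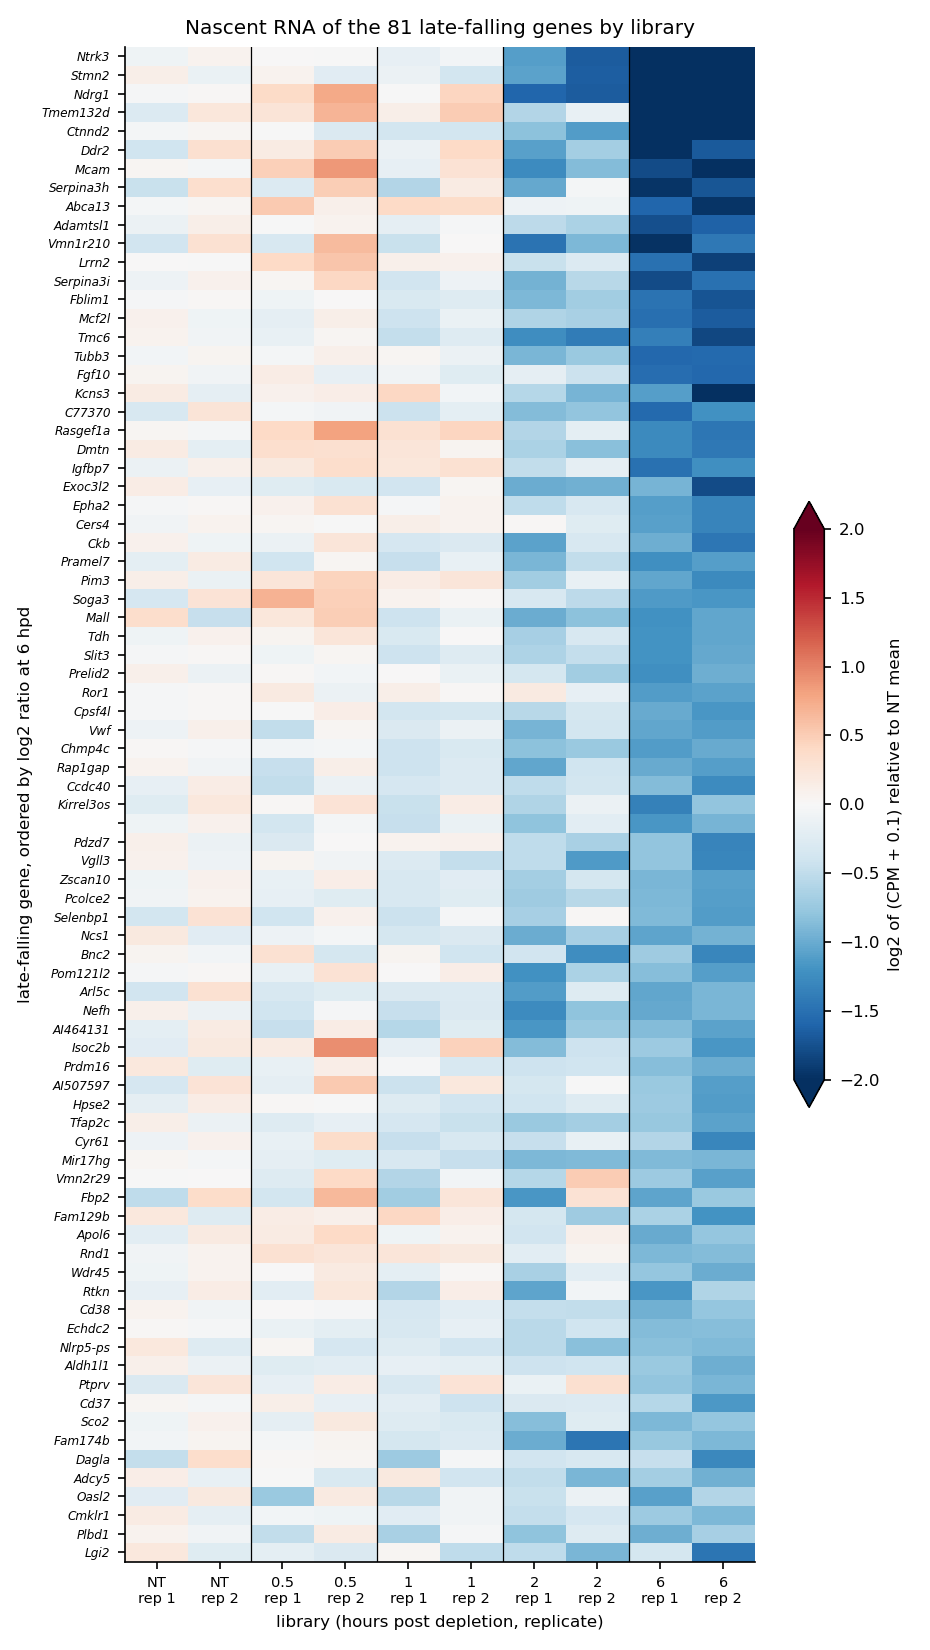
Heat map of log2 of (CPM + 0.1) relative to the NT mean for the 81 late-falling genes (rows, ordered by their ratio at 6 hpd) in each of the 10 libraries (columns); the colour scale ends at -2 and 2, and 1 row is not labelled. The choice of genes kept the 1 hpd means within 0.4 of NT and set a lower limit alone at 0.5 hpd, while the 2 hpd columns, which it did not use, are blue for most genes (78 with a mean below NT).

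At 2 hpd most members stood below NT. The NT libraries had served the choice, which favours genes that read high in them, so the differences from NT may be overstated. Of the 81 genes, 27 were called lower than in NT and 0 higher by edgeR's quasi-likelihood test at an adjusted p under 0.05, which is 33.3% of members. Over all tested units 5.57% were called lower and 4.26% higher, and among eligible genes 5.07% were lower. Of the 27, 10 were among the 21 members whose unit lay under 50% inside the annotated transcript, and 17 among the other 60. At an unadjusted p under 0.05, 48 members were lower, beside 12.6% of all tested units. The median log2 fold change of members was -0.43, beside -0.04 over all tested units, and 75 of 81 lay below 0. Scaled by total counts instead of TMM, these medians were -0.54 and -0.16, so that the scaling moved the median of all units by over 0.1. Both 2 hpd libraries lay below both NT libraries for 64 members, a pattern shown by 34.0% of all tested units. In place of 27 calls, DESeq2 gave 22, total counts gave 34 and an added term for replicate number gave 47. The 27 calls fell to 14 without NT replicate 2, to 17 without NT replicate 1 and to 16 without 2 hpd replicate 1.

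Read against the 1 hpd libraries, which the choice had held near NT, 5 members were called lower at 2 hpd: Ndrg1, Ntrk3, Dmtn, Tubb3 and Stmn2. Of all tested units 0.197% were called lower in that comparison. With an added term for replicate number 22 members were called in place of 5. The 5 calls fell to 1 without either 1 hpd library, to 2 without 2 hpd replicate 2 and to 3 without 6 hpd replicate 2. From 2 to 6 hpd, 22 members were called lower, beside 0.517% of all tested units, and the 22 fell to 10 without 6 hpd replicate 1, to 12 without 6 hpd replicate 2 and to 14 without 2 hpd replicate 2. That comparison rests on the 6 hpd values that chose the genes. At 6 hpd against NT, 71 members passed the threshold, beside 9.20% of units. None did at 0.5 hpd, beside 0.787% of units, or at 1 hpd, beside 3.61% of units. At an unadjusted p under 0.05 the counts were 0 and 4, DESeq2 called 0 at either time, and these counts follow from the choice of genes.

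The pace of the fall differed widely among members. The log2 ratio at 2 hpd was a median 49.2% of that at 6 hpd, with an interquartile range of 34.0% to 64.4%. It was at least 50% in 39 members and under 25% in 13. The middle member thus stood at 69.6% of its NT level at 2 hpd and at 48.1% at 6 hpd. Mir17hg, AI464131 and Pom121l2 had reached 98.7%, 97.1% and 91.7% of their 6 hpd ratio by 2 hpd. By contrast Abca13, Cers4, Rnd1 and Ror1 had reached 5.32%, 8.17%, 7.97% and -1.27%. For 79 members the 6 hpd mean was below the 2 hpd mean, and the exceptions were Nefh and Fam174b.

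**Figure D2:**
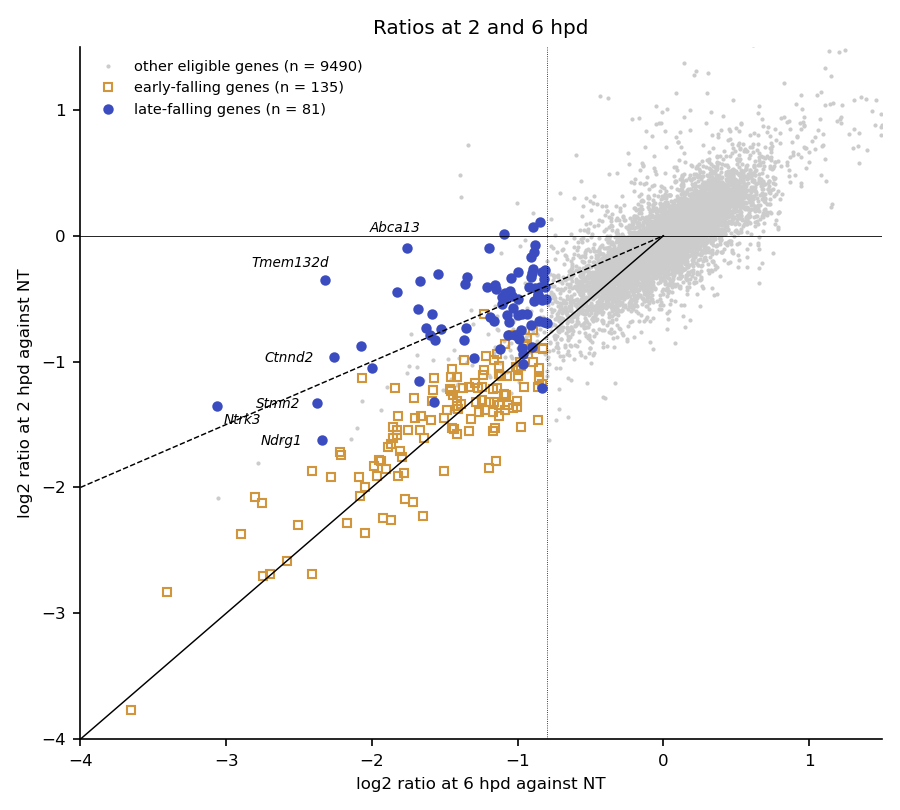
Log2 ratio to NT at 6 hpd (x axis) and at 2 hpd (y axis) for 9490 other eligible genes (grey), 135 early-falling genes (orange squares) and the 81 late-falling genes (blue). The solid line marks equal ratios, the dashed line a 2 hpd ratio of 50% of that at 6 hpd and the dotted line the -0.8 limit; 36 genes lie outside the axes. Late-falling genes scatter around the dashed line (median 49.2%) and early-falling genes around the solid one (median 97.7%).

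The 15 neuronal and axonal genes ranged from the lowest ratio of all members at 6 hpd, that of Ntrk3, to the ratio nearest the limit, that of Lgi2. Their median log2 ratio was -0.74 after 2 h and -1.37 after 6 h. At 2 hpd 8 of 15 were called lower (Ntrk3, Stmn2, Ctnnd2, C77370, Tubb3, Slit3, Ncs1 and Nefh), beside 33.3% of all members and 5.57% of all tested units. Neural ectoderm markers held as single-gene units summed to 26.4 and 29.5 CPM in NT and to 19.7 and 20.7 CPM at 6 hpd, and only 2 markers of that list were among the tested units. The part of such cells in the result was not tested.

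Ntrk3 (chr7:78298924-78577332, minus strand), which encodes the neurotrophin-3 receptor TrkC, had the lowest ratio of all members at 6 hpd. It stood at 24.7 and 27.5 CPM in NT, 26.2 and 26 after 0.5 h, and 23.2 and 25 after 1 h. It then dropped to 12.2 and 8.21 CPM at 2 hpd and 2.80 and 3.25 CPM at 6 hpd. No 2 or 6 hpd library reached the range of the earlier ones. The log2 fold change at 2 hpd was -1.22 ± 0.18 (SE) against NT (edgeR adjusted p = 4.2e-04) and -1.19 ± 0.18 against 1 hpd (adjusted p = 0.011).

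Stmn2 (chr3:8509408-8574234, plus strand) encodes stathmin-2, a regulator of microtubules in growing axons. It held 107 and 90.8 CPM in NT, 104 and 84.4 after 0.5 h and 91.4 and 76.8 after 1 h, and then 47.3 and 31.5 after 2 h and 21.0 and 17 after 6 h. Replicate 1 was the higher library in every group, and the 2 hpd values still lay below all earlier ones. The fold change at 2 hpd was -1.20 ± 0.20 on the log2 scale (adjusted p = 0.0011).

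Ctnnd2 (chr15:30452246-31029786, plus strand), the gene of the neuronal adherens junction protein delta-catenin, declined more evenly. Its values were 41.9 and 44.6 CPM in NT, 42.9 and 35.3 after 0.5 h, 33.5 and 33.4 after 1 h, 24.3 and 19.8 after 2 h and 7.85 and 10.0 after 6 h. Both 1 hpd libraries were already below NT, and the change at 2 hpd was -0.84 ± 0.16 (adjusted p = 0.0033). Tubb3, the neuronal class III beta-tubulin, moved from 15.1 and 16.4 CPM in NT and 16.2 and 14.6 after 1 h to 8.28 and 9.40 after 2 h and 5.25 and 5.27 after 6 h. It was called lower at 2 hpd than at 1 hpd (-0.77 ± 0.14, adjusted p = 0.029).

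Slit3, 1 of the 2 members on a list of axon guidance and adhesion receptors, held 54.7 and 56.3 CPM in NT, 36.2 and 39.9 after 2 h and 24.1 and 27.3 after 6 h. The change at 2 hpd was -0.43 ± 0.11 (adjusted p = 0.017), a call that was lost without NT replicate 1, NT replicate 2 or 2 hpd replicate 1 and in a fit on the compared libraries alone. Tmem132d, a transmembrane protein gene whose unit covered 70.7% of the transcript, held 8.74 and 12.4 CPM in NT, 7.04 and 9.52 after 2 h and 1.82 and 2.24 after 6 h. NT and 2 hpd overlapped, and its change at 2 hpd was -0.25 ± 0.20 (adjusted p = 0.50), a value that turned to 0.0079 without NT replicate 2 and was -0.47 without NT replicate 1. Lrrn2, a leucine-rich repeat protein of neurons, held 24.5 and 24.4 CPM in NT, 18 and 20.2 after 2 h and 8.62 and 6.62 after 6 h, with a change at 2 hpd of -0.25 ± 0.12 (adjusted p = 0.22). Of the remaining 8 neuronal genes, Ncs1, Nefh and C77370 were called lower at 2 hpd, with log2 fold changes of -0.72, -0.94 and -0.71, whereas Kcns3, Soga3, Dagla, Adcy5 and Lgi2 were not, at values from -0.62 to -0.23.

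Of genes tied to pluripotency, the early embryo or transcription control, all 10 had both 2 hpd libraries below both NT libraries, as 64 of the 81 members and 34.0% of all tested units did. Their median log2 ratio was -0.68 after 2 h and -0.99 after 6 h, and their median share at 2 hpd was 67.4%. Of them 4 were called lower at 2 hpd (Mir17hg, Tfap2c, Zscan10 and Pramel7), beside 33.3% of all members and 5.57% of all tested units.

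Mir17hg held 207 and 194 CPM in NT, 178 and 170 after 0.5 h, 161 and 145 after 1 h, 108 and 109 after 2 h and 108 and 107 after 6 h. All later libraries lay below NT, those of 2 and 6 hpd stood at the same level, and its change at 2 hpd was -0.77 ± 0.11 (adjusted p = 2.7e-04). Tfap2c (chr2:172546200-172562269, plus strand) encodes AP-2 gamma, a factor of trophoblast and germ cells. It held 45.6 and 38.8 CPM in NT, 33.6 and 31.0 after 1 h, 25.3 and 26.4 after 2 h and 25 and 19.96 after 6 h. Its groups at 2 hpd and NT did not overlap, and the change was -0.59 ± 0.13 (adjusted p = 0.0069; 0.069 without NT replicate 1). Zscan10, a zinc finger factor of embryonic stem cells, held 78.9 and 88.5 CPM in NT, 52.4 and 65.7 after 2 h and 44.5 and 39.2 after 6 h. Its change was -0.39 ± 0.11 (adjusted p = 0.033).

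Tdh (chr14:63479941-63509697, minus strand) encodes threonine dehydrogenase, a mitochondrial enzyme on which mouse embryonic stem cells depend, and had the highest level per length of all members, 12.8 CPM per kb in NT. It held 357 and 405 CPM in NT, 396 and 449 after 0.5 h, 309 and 382 after 1 h, 241 and 304 after 2 h and 167 and 186 after 6 h. Although both 2 hpd libraries lay below NT, the change of -0.38 ± 0.12 did not pass (adjusted p = 0.066). It passed with total counts (0.017) and with an added term for replicate number. With each library left out in turn it ran from -0.48 to -0.29. Pim3, a serine/threonine kinase gene known to respond to LIF and STAT3, held 33.2 and 28.0 CPM in NT, 36.3 and 41.8 after 0.5 h, 33.9 and 36.4 after 1 h, 18.9 and 27.7 after 2 h and 14.8 and 12.6 after 6 h. It was above NT in both 0.5 hpd libraries, and its change at 2 hpd, -0.30 ± 0.14, did not pass (adjusted p = 0.21). It was -0.52 without 2 hpd replicate 2 (adjusted p = 0.035) and -0.11 without 2 hpd replicate 1. Of the other members of this group, Vgll3, a partner of TEAD factors, Bnc2, Prdm16 and Nlrp5-ps were not called at 2 hpd, at log2 fold changes of -0.66, -0.60, -0.30 and -0.56. Pramel7, a gene of naive stem cells, had a change of -0.58 ± 0.17 (adjusted p = 0.039), but only 6.65% of its unit lay inside the transcript and it belongs to a multigene family, so its count is uncertain.

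**Figure D3:**
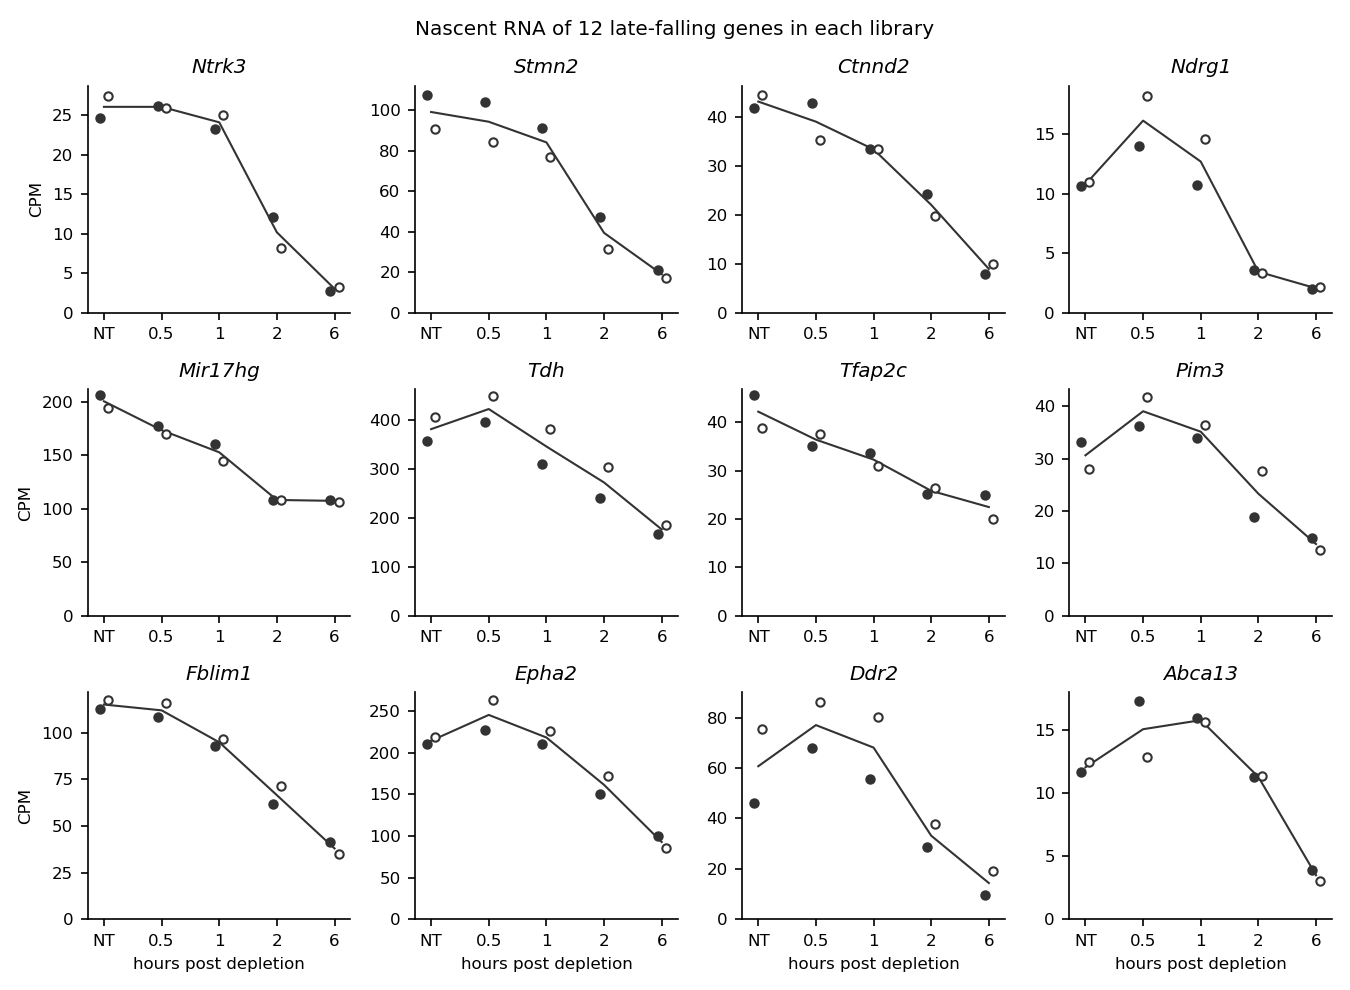
CPM (y axis, from 0) of 12 late-falling genes in NT and at 0.5, 1, 2 and 6 hours post depletion (x axis, not to time scale). Filled and open circles are replicates 1 and 2 and lines join group means. Ntrk3, Stmn2 and Ndrg1 drop between 1 and 2 hpd, Mir17hg is level from 2 to 6 hpd (108 and 109, then 108 and 107 CPM), and Abca13 is near NT at 2 hpd.

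Ndrg1 (chr15:66925473-66969465, minus strand), a gene known to respond to hypoxia and differentiation, had the smallest p of all members at 2 hpd. It held 10.6 and 11 CPM in NT, 14.0 and 18.2 after 0.5 h, 10.8 and 14.6 after 1 h, 3.54 and 3.33 after 2 h and 1.96 and 2.13 after 6 h. Both 0.5 hpd libraries lay above both NT libraries, though no member was called higher at that time. The change at 2 hpd was -1.52 ± 0.20 against NT (adjusted p = 1.4e-04) and -1.85 ± 0.19 against 1 hpd (adjusted p = 6.0e-04). Tmc6, a transmembrane channel-like gene, held 12.1 and 11 CPM in NT, 4.83 and 4.28 after 2 h and 4.41 and 3.20 after 6 h. Its change at 2 hpd was -1.21 ± 0.19 (adjusted p = 5.9e-04).

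Abca13 (chr11:9382901-9628537, plus strand), an ABC transporter gene, held 11.7 and 12.4 CPM in NT, 17.3 and 12.8 after 0.5 h, 15.9 and 15.6 after 1 h, 11.2 and 11.3 after 2 h and 3.92 and 3.03 after 6 h. It was above NT at 0.5 and 1 hpd in both libraries. Its change at 2 hpd was 0.02 ± 0.17 (adjusted p = 0.95), and the sign turned under total counts, under the filter at a mean of 50, and without 2 hpd replicate 1 or NT replicate 1. Vmn1r210, a vomeronasal receptor gene, had a change of -1.07 ± 0.31 (adjusted p = 0.039), but 7.93% of its unit lay inside the gene, it belongs to a multigene family, and the call was lost without 2 hpd replicate 1 or NT replicate 2 and under the filter at a mean of 50. In the same mixed group Pom121l2, AI464131 and Fam174b were called lower at 2 hpd, with log2 fold changes of -0.82, -0.84 and -1.10. Prelid2, Cpsf4l, Ccdc40, Kirrel3os, Pdzd7, AI507597, Vmn2r29, Apol6, Wdr45 and Oasl2 were not, at values from -0.46 to 0.14. NT and 2 hpd overlapped for Kirrel3os, AI507597, Vmn2r29, Apol6 and Oasl2.

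Among cytoskeleton, adhesion and small GTPase regulators, 5 of 12 were called lower at 2 hpd: Fblim1, Chmp4c, Dmtn, Mcf2l and Exoc3l2. The share was 33.3% over all members and 5.57% over all tested units. Fblim1 (chr4:141538608-141603527, minus strand) encodes migfilin, a filamin-binding protein of cell-matrix contacts. It held 113 and 118 CPM in NT, 108 and 116 after 0.5 h, 93.1 and 96.8 after 1 h, 61.6 and 71.4 after 2 h and 41.1 and 34.7 after 6 h. No library from 1 hpd on overlapped those before it, and the change at 2 hpd was -0.68 ± 0.10 (adjusted p = 3.6e-04). Chmp4c, a subunit of the ESCRT-III membrane scission complex, held 95.8 and 92.7 CPM in NT, 70.8 and 76.0 after 1 h, 53.1 and 56.2 after 2 h and 43.3 and 46.7 after 6 h. Its change at 2 hpd was -0.67 ± 0.10 (adjusted p = 4.6e-04). Dmtn, the actin-bundling dematin, held 90.3 and 70.1 CPM in NT, 101 and 101 after 0.5 h, 51.6 and 44.8 after 2 h and 33.0 and 29.7 after 6 h, with a change at 2 hpd of -0.61 ± 0.14 (adjusted p = 0.013). Mall, Rap1gap, Rasgef1a, Rtkn, Arl5c, Fam129b and Rnd1 were not called at 2 hpd, with log2 fold changes from -0.83 to 0.04.

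For receptors and ligands the median log2 ratio was -0.37 after 2 h and -1.08 after 6 h, a median share of 34.0%. Of these 12, 1, Mcam, was called lower at 2 hpd, beside 33.3% of all members and 5.57% of all tested units. Epha2 (chr4:141281623-141334189, plus strand), an ephrin receptor and the other member on the axon guidance list, held 210 and 219 CPM in NT, 227 and 264 after 0.5 h, 211 and 226 after 1 h, 151 and 172 after 2 h and 99.9 and 85.5 after 6 h. The 2 hpd libraries lay below all earlier ones, but the change of -0.30 ± 0.10 did not pass (adjusted p = 0.080). It passed with total counts (0.016), under the filter at a mean of 50 (0.040) and with an added term for replicate number. Ddr2, a collagen receptor tyrosine kinase gene, held 45.9 and 75.5 CPM in NT, 67.9 and 86.2 after 0.5 h, 55.8 and 80.4 after 1 h, 28.5 and 37.7 after 2 h and 9.67 and 19.0 after 6 h. Replicate 2 was the higher library in every group, and the change at 2 hpd was -0.76 ± 0.25 (adjusted p = 0.071, or 4.3e-04 with an added term for replicate number). It passed with total counts (0.041), in a fit on the compared libraries alone (0.013) and without NT replicate 1 or either 6 hpd library, and the value was -0.38 without NT replicate 2. Mcam, the adhesion molecule CD146, was low, at 4.23 and 3.98 CPM in NT, 1.66 and 2.20 after 2 h and 1.12 and 0.785 after 6 h. Its change was -0.99 ± 0.25 (adjusted p = 0.022; 0.050 with DESeq2), a call lost without NT replicate 1, NT replicate 2 or 2 hpd replicate 1. Fgf10, a ligand of FGF receptors, still held 21.6 and 18 CPM at 2 hpd, against 25.5 and 23.4 in NT, and 8.48 and 8.13 after 6 h. Ror1, a receptor of Wnt5a, held 10.3 and 10.6 CPM in NT, 11.8 and 9.28 after 2 h and 4.76 and 4.93 after 6 h. Igfbp7, Vwf, Cyr61, Cd38, Ptprv, Cd37 and Cmklr1 were not called at 2 hpd either, with log2 fold changes from -0.53 to 0.22.

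Of 6 matrix or secreted enzymes and inhibitors, Adamtsl1, Serpina3i and Pcolce2 were called lower at 2 hpd, beside 33.3% of all members and 5.57% of all tested units. Adamtsl1, an ADAMTS-like matrix glycoprotein, held 25.6 and 30.1 CPM in NT, 19.4 and 17.8 after 2 h and 8.20 and 9.03 after 6 h, and its change of -0.46 ± 0.13 (adjusted p = 0.040) was lost under 9 of the alternatives tried, among them DESeq2 (0.089) and the fit without NT replicate 2 (0.26). Serpina3h and Serpina3i, serine protease inhibitor genes of a multigene cluster on chromosome 12, had units only 11 bp apart, so their counts are uncertain and may not be independent. Serpina3h held 10.7 and 18.7 CPM in NT, 7.23 and 14.3 after 2 h and 3.71 and 4.43 after 6 h, and only the 6 hpd libraries were clear of NT. Its change at 2 hpd was -0.36 ± 0.31 (adjusted p = 0.52), which turned to 0.07 without NT replicate 2 and to 0.0049 without 2 hpd replicate 1 and was -0.84 without 2 hpd replicate 2. Hpse2 and Plbd1 were not called, at log2 fold changes of -0.21 and -0.42. With each library left out in turn, that of Plbd1 ran from -0.64 to -0.23. None of the 9 metabolic and mitochondrial genes was called at 2 hpd, among them Cers4, Ckb, Selenbp1, Isoc2b, Fbp2, Echdc2, Aldh1l1 and Sco2, with values from -0.56 to 0.03.

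**Figure D4:**
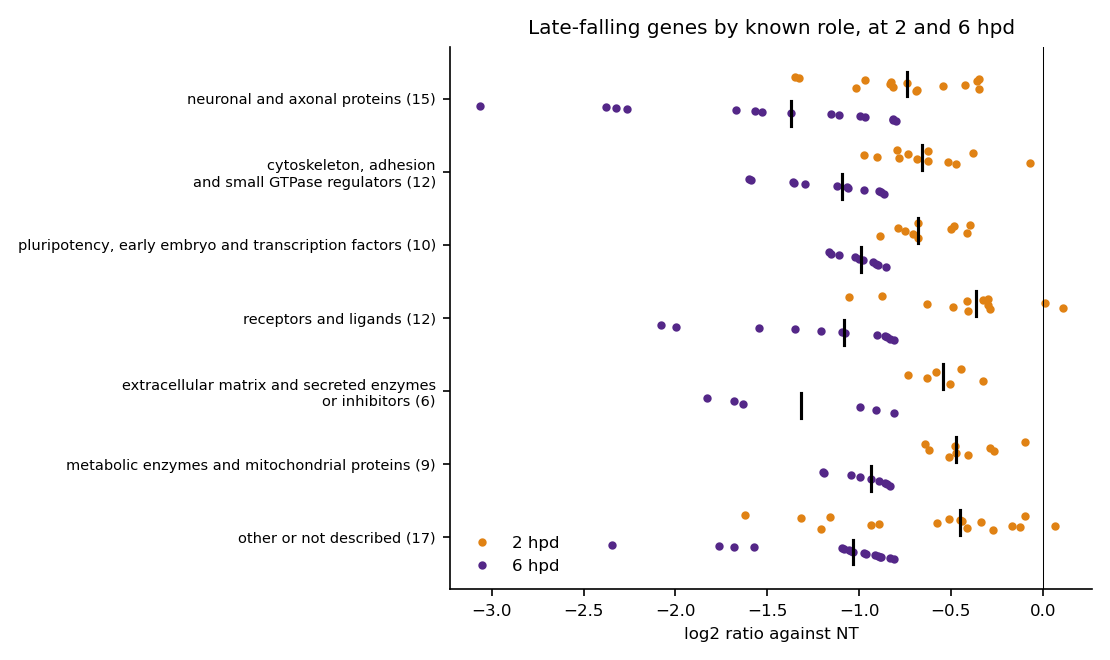
Log2 ratio to NT (x axis) of each late-falling gene at 2 hpd (orange) and 6 hpd (purple) by known role, with the number of genes in brackets and black bars for medians. Neuronal and axonal genes reach the lowest ratios at 6 hpd (median -1.37, lowest -3.07), and receptors and ligands have the 2 hpd median nearest 0 (-0.37).

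Members on the edge of the choice were close to genes left out. Lgi2, Plbd1 and Cmklr1 were just inside, with ratios at 6 hpd of -0.8001, -0.808 and -0.811, and Srrm4, Fam222a and Tmem63a just outside, with -0.797, -0.796 and -0.796. The thresholds were also applied within each replicate number alone. The replicate 1 libraries chose 57 genes, of which 51 (89.5%) had a ratio at or below -0.8 after 6 h in replicate 2, beside 3.70% of other eligible genes. The replicate 2 libraries chose 102 genes, of which 54 (52.9%) did so in replicate 1, beside 2.57% of others. Both choices held 36 genes in common, all members. In the other replicate the median ratio at 2 hpd of the chosen genes was -0.58 and -0.56, beside 0.05 and -0.12 for other eligible genes.

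The late-falling genes were set beside 135 genes that met the -0.8 limit at both 1 and 6 hpd (early-falling) and 90 genes that rose only late, chosen with mirrored limits. The unit of a late-falling gene was a median 36.6 kb long, against 29.5 kb for early-falling, 77.0 kb for late-rising and 35.0 kb for all eligible genes. Members were weakly transcribed for their length: the median NT level was 0.416 CPM per kb, against 1.16 in early-falling, 0.172 in late-rising and 1.21 in all eligible genes. The 12 members over 100 kb had a median ratio of -0.66 after 2 h and -1.53 after 6 h, compared with -0.49 and -0.98 for 38 members under 30 kb, and their share at 2 hpd was 43.4% against 49.3%. These values are descriptions, since all classes were chosen on their ratios.

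Units that fell early lay about as often near late-falling genes as near eligible genes in general. Measured to the midpoint of the other unit, 12 of 81 (14.8%) had a unit called lower at 1 hpd within 100 kb, near the 13.4% of all eligible genes, whereas 77 of 135 early-falling genes (57.0%) did. Tfap2c lay 13.1 kb from Gm35982 (log2 fold change of -2.22 at 1 hpd), and Fam129b 19.0 kb from an extragenic unit (-2.04). Ndrg1 lay 105 kb from an extragenic unit that had changed by -3.26 after 1 h and -5.20 after 6 h.

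Transcription from the opposite strand at or around the members, or from the same strand just downstream, was also read, on counts that the choice of genes did not use, apart from those of Fblim1 and AI507597, which are members and each other's companions. Such companion units, opposite-strand units that overlapped a member or began within 5 kb of its start and extragenic units within 10 kb of its end, numbered 75 for 53 members. At 6 hpd 22 (29.3%) were called lower than in NT, beside 6.78% of the companions of other eligible genes, and 2 (2.67%) were called higher, Wscd2 and Mark3, beside 4.18%. At 2 hpd 11 (14.7%) were called lower, beside 4.01%, and 1 (1.33%), Wscd2, was called higher, beside 2.83%. Of the 22, 21 were no members themselves, and 36 of the 75 had a mean under 50 fragments. The 22 calls fell to 11 without 6 hpd replicate 1 and to 13 without NT replicate 2, and the 11 after 2 h to 6 without 2 hpd replicate 1 and to 7 without NT replicate 2.

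At 1 hpd 5 of the 75 companions (6.67%) were called lower, beside 2.50% of the companions of other eligible genes, and 2 were called higher, Wscd2 and Isoc2a, beside 1.52%. The 5 lay opposite Cd38, Slit3, Adamtsl1, Pramel7 and Ckb (Trmt61a, adjusted p = 0.048). The unit across the start of Cd38, the gene of an NAD-consuming surface enzyme (chr5:43848598-43872000, minus strand), held 35.7 and 43.1 CPM in NT, 25.6 and 29.5 after 0.5 h, 16.8 and 19.0 after 1 h, 14.0 and 15.7 after 2 h and 7.85 and 8.19 after 6 h. Both of its 0.5 hpd libraries lay below both NT libraries, but the log2 fold change there, -0.49 ± 0.12, was not called (adjusted p = 0.065). It had changed by -1.05 ± 0.12 by 1 hpd (adjusted p = 1.2e-04) and by -2.20 ± 0.14 by 6 hpd (adjusted p = 7.8e-08). Cd38 itself held 68.6 and 62.3 CPM in NT, 65.9 and 64.3 after 0.5 h, 51.8 and 56.7 after 1 h, 46.8 and 46.4 after 2 h and 33.6 and 38.4 after 6 h. The unit inside Slit3 (chr11:35371992-35392015, minus strand) held 14.3 and 20.1 CPM in NT, 6.14 and 7.4 after 1 h and 5.32 and 5.27 after 6 h. Its change was -1.25 ± 0.18 at 1 hpd (adjusted p = 6.5e-04). The unit inside Adamtsl1 (chr4:86312892-86342892, minus strand) changed by -0.87 ± 0.20 at 1 hpd (adjusted p = 0.015) and -1.50 ± 0.21 after 6 h. That Cd38, Slit3 and Adamtsl1 were near NT at 1 hpd, and not far below it at 0.5 hpd, was required by their choice. The difference between gene and opposite strand was not tested.

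**Figure D5:**
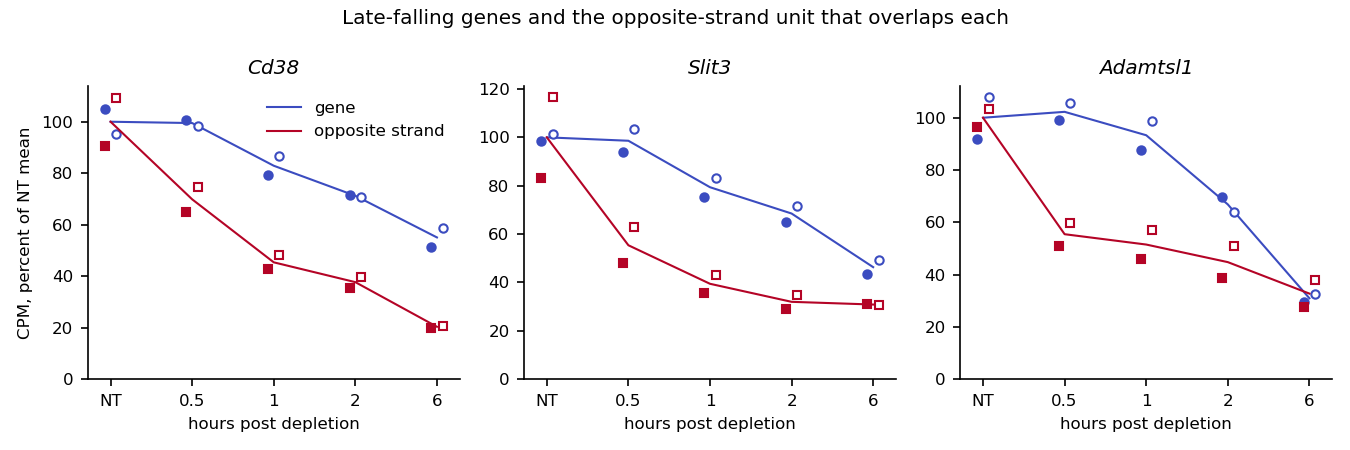
CPM as percent of the NT mean (y axis, from 0) of Cd38, Slit3 and Adamtsl1 (blue circles) and of the opposite-strand unit that overlaps each (red squares) in NT and at 0.5, 1, 2 and 6 hours post depletion (x axis, not to time scale). Filled and open symbols are replicates 1 and 2, and lines join means. All 3 opposite-strand units lie below their NT libraries at 0.5 hpd, where each gene still overlaps its NT libraries. The choice set a lower limit for the genes at 0.5 hpd, and all 3 units had been called lower at 1 hpd. At 0.5 hpd edgeR called the Slit3 unit (adjusted p = 0.030) but not those of Cd38 (0.065) and Adamtsl1 (0.054).

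Among other companions, Pramel6, opposite Pramel7, changed by -0.53 ± 0.11 after 1 h and -1.32 ± 0.11 at 6 hpd (adjusted p = 0.0064 and 1.5e-06). Pramel6 is of the same multigene family as Pramel7, so its count is uncertain too. Gm38605, opposite Dmtn, changed by -0.98 ± 0.18 at 2 hpd (adjusted p = 0.0028) and -1.45 ± 0.20 after 6 h. Fblim1 and AI507597 are members that overlap on opposite strands.

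The pathway lists were short and the members few among eligible genes, so nothing is read from how many members a list held. None of 37 tested naive pluripotency regulators was a member, and 16 of these were called lower at 1 hpd already, 19 after 2 h and 23 after 6 h, where 3.61%, 5.57% and 9.20% of all tested units were called lower. Higher calls made up 4.26% of all tested units at 2 hpd, and 1880 of the 28459 units at 6 hpd. On a list of 19 tested LIF, STAT3 and cytokine signalling genes, which held Pim3, 3 were lower and 2 higher at 2 hpd. At 6 hpd 7 of them were lower and 3 higher. On a list of 17 tested primed and early lineage factors, which held Tfap2c, 5 were lower and 3 higher at 2 hpd. Of 32 tested axon guidance and adhesion receptors, which held Epha2 and Slit3, 8 were lower and 5 higher at 2 hpd. Lists of Nodal and BMP, FGF, Wnt, germ cell, chromatin, cell cycle, p53 and sterol genes held no member.

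Promoter sequences gave no letters that set most members apart. RefSeq promoters (GRCm38.p6, 250 bases before to 50 after the annotated start) were found for 60 members, 24 of them within 500 bp of the start of the transcribed unit, and were searched on both strands. A KLF-like GGGNGTGG was in 14 (23.3%), beside 23.6% of 7866 promoters of eligible genes and 17.6% of all 32851 promoters. The SOX-like CATTGTT was in 1 and the octamer ATTTGCAT in 0, beside 1.82% and 1.35% of eligible and 3.78% and 1.74% of all promoters. The ESRRB-like CAAGGTCA and the TCF-like CTTTGAT were in 2 each (3.33%), beside 1.00% and 2.34% of eligible and 1.56% and 3.73% of all promoters. The E-box CACGTG was in 7 (11.7%) and TATAAA in 5 (8.33%), beside 10.9% and 6.28% of eligible and 7.15% and 13.6% of all promoters. The STAT-like TTCCNGGAA was in 3 members (5%), beside 1.18% of eligible and 1.15% of all promoters. The stretches of these 3 genes are shown, with the match in capitals, because this was the motif whose share lay furthest above that of eligible promoters in ratio, and it was picked after the counts were seen.
Zscan10, chr17:23600766-23600825, plus strand: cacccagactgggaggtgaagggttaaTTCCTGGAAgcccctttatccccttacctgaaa
Cpsf4l, chr11:113710052-113710111, minus strand: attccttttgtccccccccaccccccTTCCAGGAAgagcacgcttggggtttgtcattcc
Mcf2l, chr8:12949338-12949397, plus strand: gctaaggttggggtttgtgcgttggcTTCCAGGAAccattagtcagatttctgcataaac
A match describes letters only. In Mcf2l the annotated start nearest to the unit's start was still 23.6 kb from it, so that the printed stretch may not be the promoter in use.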

How the data were processed

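Alignment by the authors used BWA 0.7.17-r1188 and mm10, after which they kept mapping quality of at least 10 with SAMtools 1.10, removed duplicates with Picard 2.12.0 and split alignments by strand. They pooled libraries, defined transcribed units in 200 bp bins with a hidden Markov model and deposited raw fragment counts per unit, without normalization. The positions of units were deposited by the authors too, and their starts may be 1 bp low.

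A unit entered the test in edgeR 4.0.16 (R 4.3.3; TMM factors, 1 coefficient per group over 10 libraries, quasi-likelihood F-test, Benjamini-Hochberg over 28459 units, called at adjusted p under 0.05) if 2 or more libraries held over 10 fragments each. Common dispersion corresponded to a coefficient of variation of 10.0%. The SE is the size of the log2 fold change over the square root of F. The procedure was tested on simulated data. CPM in the text use library totals. Alternatives were DESeq2 1.42.0, RLE factors, total counts, other count filters, a fit on the compared libraries alone, a block for replicate number, other settings of the choice of members, shorter companion distances, and leaving out each library.

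Members and lists were chosen with earlier results of these data known. Genes named by rule were the 12 deepest falls, the 6 smallest p at 2 hpd, the 4 highest in NT, the 3 longest units, those on pathway lists, those nearest the limit, and the 6 companions with the smallest p at 6 hpd; a few others (Tubb3, Zscan10, Dmtn, Fgf10, Ror1, Cd38 and genes named for their place beside an early-falling unit) were added after their values were seen. Roles were assigned from textbook knowledge. No group held 4 libraries, so outlying libraries could not be tested for. The values of 1 member and 1 marker gene are not reported here by name.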

Additional observations from a re-analysis of the deposited data

How the results depend on the processing

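At 2 hpd against NT, the count of late-falling genes called lower (27) was 14 to 30 when each library was left out in turn and 47 with the replicate number as a block, which kept all 27. The replicate numbers were not treated as pairs, since no label tied them to a shared culture. Differences between replicates 1 and 2 correlated between groups at 0.0674 to 0.262 over all tested units. Over units with a mean of 50 or more they correlated at 0.376 to 0.661 among NT, 0.5, 1 and 2 hpd. With 6 hpd these correlations were 0.0552 to 0.299. Comparisons up to 2 hpd thus held a shared replicate difference that the main fit left in the spread. The block also called Ddr2, Tdh, Epha2 and Lgi2 (adjusted p = 4.3e-04, 0.0065, 0.030 and 0.044). With the replicate block 22 members were lower at 2 than at 1 hpd (main value 5; 1 to 5 without each library), 42 were lower at 6 than at 2 hpd (22; 10 to 23), and 18 companion units were lower at 2 hpd (11; 6 to 13). The count at 6 hpd against NT was 51 to 73, and companions called lower at 6 hpd were 11 to 22 without each library and 12 of 39 under the filter at a mean of 50. At 1 hpd the count of 0 became 2 with total counts and 1 under the filter at a mean of 50, in the fit on the compared libraries alone or with the block. The members numbered 65 to 106 without each library and 36 when each replicate number had to meet the limits. DESeq2 shared 22 of the 27 calls. The median at 2 hpd kept its sign, from -0.458 to -0.381 without each library. Left out 1 library at a time, the log2 fold change at 2 hpd ran from -0.469 to 0.0079 for Tmem132d (positive without NT replicate 2), from -0.836 to 0.072 for Serpina3h (positive without NT replicate 2; dropping 2 hpd replicate 1 gave 0.0049) and from -0.055 to 0.083 for Abca13 (lowest without 2 hpd replicate 1; dropping NT replicate 1 gave -0.0091). Abca13 was also -0.095 with total counts and -0.0075 under the filter at a mean of 50. The causes were not tested. With 2 libraries per group, small changes of the 22 members with under 100 fragments per library could not be resolved.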
